A study of Mus musculus with 12 samples.

Results

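The genes described here encode the machinery that takes a secretory protein into the endoplasmic reticulum (ER) and makes its first modifications. They were chosen by name. The list holds 32 genes in 5 subcomplexes, of 18193 genes that the arrays measured, and 31 of the 32 had a value. A gene was represented by the probeset with the highest mean level among those that the platform annotation gives to that gene alone. *Sec61g* had no such probeset and is not analysed here. Liver RNA came from 4 groups of 3 mice, with 1 animal per Affymetrix array. The groups were wild-type or *Atf6a*-/- animals, killed 8 h after an intraperitoneal injection of 2 mg/kg tunicamycin (TM) in 150 mM dextrose, or of the dextrose vehicle alone. All 4 groups held animals of variable age and sex, fasted before sacrifice. The RNA was that of the whole liver homogenate, and the *Atf6a* allele is the knockout that the labels name, with no limit to the hepatocyte given.

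The signal recognition particle (SRP) binds a signal sequence as it leaves the ribosome and brings the ribosome to its receptor on the ER membrane. The Sec61 channel then takes in the growing chain, helped by the translocon-associated protein complex (TRAP, the Ssr proteins) and by accessory membrane proteins. Signal peptidase cuts off the signal sequence, and oligosaccharyltransferase (OST) moves a preassembled sugar chain from a lipid carrier to asparagine residues. TM blocks the first step in making that lipid-linked sugar, so that proteins stay without N-glycans and ER stress follows. ATF6α is an ER membrane protein that is cut during such stress and then acts as a transcription factor. Hepatocytes secrete most of the proteins of blood plasma and are rich in this machinery.

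All values are RMA intensities on the log2 scale, so a difference of 1 is a change by a factor of 2, and levels are not compared between genes. The array medians lay between 4.98 and 5.11, and the mean levels of the 31 members between 6.35 and 12.46. The pooled SD within groups had a median of 0.170 over the members and of 0.153 over all genes. Each group held 1 array with Y-linked signal, replicate 2 of wild-type vehicle, 1 of wild-type TM, 3 of *Atf6a*-/- vehicle and 2 of *Atf6a*-/- TM, and values are given without those arrays where a call differed. *Atf6*, the deleted gene, had a mean of 9.04 ± 0.38 (SD, n = 3) in wild-type and 7.33 ± 0.41 in *Atf6a*-/- vehicle animals. Under TM the means were 10.97 ± 0.21 and 10.15 ± 0.37, and neither difference between the genotypes passed the test (adjusted p = 0.184 with vehicle and 0.0905 under TM). The position of that probeset against the deleted exons is not known here, so it does not check the genotype. The hepatocyte markers summed to between 16.98 and 17.09 in all 12 animals, a sum that rests mostly on the brightest of them. Of the 6 measured, *Tat* was called higher with TM in both genotypes (0.89 and 1.03) and 5 did not pass. Macrophage markers summed to between 12.24 and 13.09 with vehicle and between 11.89 and 12.55 with TM over both genotypes, with 6 of 6 markers measured. All 6 had negative differences with TM in each genotype. None was called in wild-type animals, and 2 were called lower in *Atf6a*-/- animals, where 8.21% of all genes were. Plasma cells are secretory cells rich in this machinery. Their 4 markers summed to between 7.78 and 8.54 with vehicle and between 9.55 and 13.88 with TM, but *Derl3*, also an ATF6 target, alone was called, and *Jchain*, *Mzb1* and *Tnfrsf17* did not pass in either genotype. Whether such shifts between cell types bear on the members was not tested, and fewer cells of a type cannot be told apart from less RNA per cell in these homogenates.

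TM raised most of the machinery in both genotypes. By limma, with a mean for each of the 4 groups estimated over the 12 arrays together, a gene was called at a Benjamini-Hochberg adjusted p under 0.05 over all probesets and a change of more than 1.5-fold. In wild-type animals 21 of 31 members were higher with TM, where 8.92% of all genes were. Only *Tram2* was lower, where 6.9% of all genes were, and 9 members did not pass. The median difference was 0.84 over the members and -0.060 over all genes. In *Atf6a*-/- animals 18 of 31 members were higher and again *Tram2* alone was lower, against 13.1% and 8.21% of all genes. There the median difference was 0.67 over the members and -0.10 over all genes. All 31 members lay above the median level of all probesets, and of the 11769 genes above that level 13.5% were higher with TM in wild-type and 19.7% in *Atf6a*-/- animals.

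The 18 members that were higher in *Atf6a*-/- animals were all higher in wild-type animals too. Another 3, *Sec61b*, *Ostc* and *Magt1*, passed in wild-type animals alone, and 10 were higher in neither genotype. With the mean of its 2 probesets *Ostc* passed in *Atf6a*-/- animals too. Passing in 1 genotype alone is not a difference between the genotypes, and of these 3 only *Magt1* passed the test of that difference. Across the 31 members the responses of the genotypes, which share no arrays, had a Pearson's r of 0.914 and a Spearman's rho of 0.808. This is a description across genes, which are not independent replicates. Of the 21 members higher in wild-type animals, 16 (76.2%) had a smaller response in *Atf6a*-/- animals, and of all 1623 genes higher in wild-type animals 42.5% did. The response without *Atf6a* was in the median 82.4% of the wild-type one over these members and 112.4% over all such genes, on the log2 scale. Both shares were taken over genes called in the wild-type arrays, which also enter the comparison. That choice favours a smaller response in *Atf6a*-/- animals, in these shares and in the medians. Without it, the difference in response (*Atf6a*-/- minus wild-type) was negative in 23 of 31 members and in 9707 of 18193 genes. A smaller response can come from a higher vehicle level as well as from a lower level under TM. With vehicle 25 of 31 members, and 9121 of 18193 genes, had a higher mean in *Atf6a*-/- animals. Under TM 20 of 31 members, and 9852 of 18193 genes, had a lower one. The members' median differences were 0.16 with vehicle and -0.043 under TM.

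**Figure D1:**
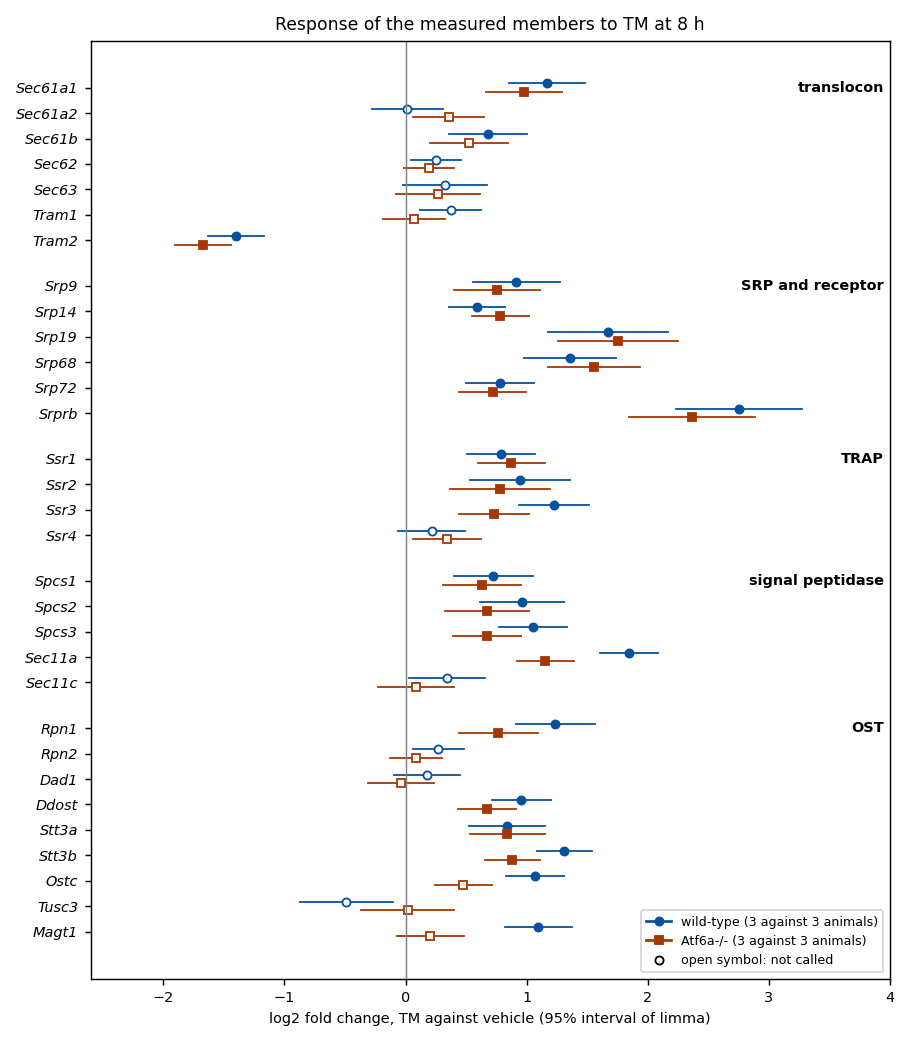
Log2 fold change between TM and vehicle of each measured member, by subcomplex, in wild-type (circles) and *Atf6a*-/- animals (squares), 3 animals per group. Bars are limma's 95% intervals, open symbols did not pass. All 6 SRP and receptor genes were called in both genotypes, *Tram2* was the one member that fell, and the response of *Magt1* was 1.10 in wild-type against 0.20 in *Atf6a*-/- animals.

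The median response ran from 0.33 to 1.14 over the subcomplexes in wild-type animals. The 6 genes of the SRP and its receptor had the highest, 1.14, and 1.17 in *Atf6a*-/- animals, and all 6 passed in both. The 5 signal peptidase genes had medians of 0.96 and 0.67, with 4 higher in each genotype. The 4 TRAP genes had medians of 0.87 and 0.76, with 3 higher in each. The 9 OST genes had medians of 0.96 and 0.48, with 6 higher in wild-type and 4 in *Atf6a*-/- animals. The 7 translocon genes had the lowest medians, 0.33 and 0.27, with 2 higher in wild-type and 1 in *Atf6a*-/- animals. No test was run between subcomplexes, since their genes are not replicates.

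**Figure D2:**
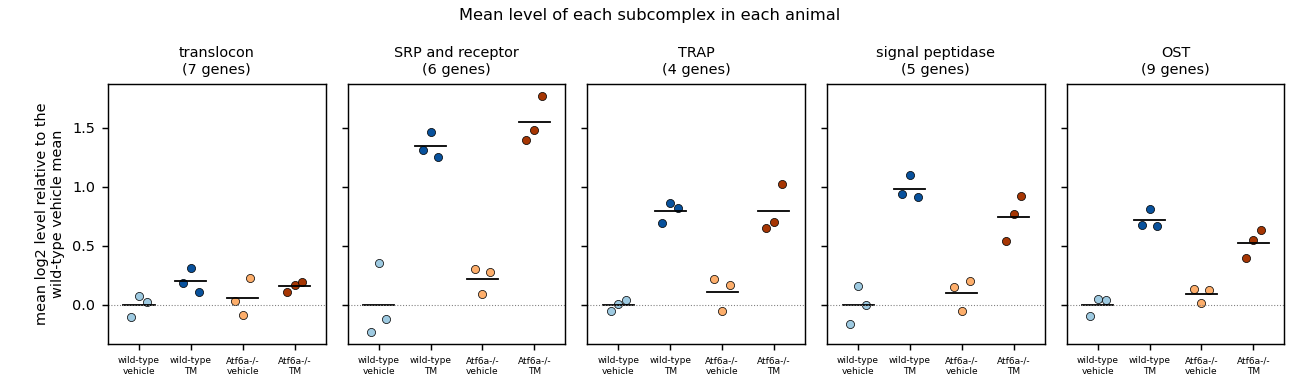
Mean log2 level of each subcomplex in each animal, set to 0 at the mean of the wild-type vehicle animals; points are animals and lines group means (n = 3). The SRP and receptor genes rose from between -0.23 and 0.35 to between 1.25 and 1.77 over both genotypes, while the mean over the 7 translocon genes, of which some rose and *Tram2* fell, lay between -0.10 and 0.31.

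The upstream sequences of the members were searched for the sites through which ATF6 and XBP1 are known to act. RefSeq promoters (build GRCm38.p6, the 250 bases before the start of the gene) were at hand for 23 of the 32 members. Both strands were searched for the ER stress response element ERSE (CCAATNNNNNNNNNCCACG), for ERSE-II (ATTGGNCCACG), for the core of the unfolded protein response element (TGACGTGG), and for the parts CCAAT and CCACG, which also lie within the ERSE. None of the 23 members held an ERSE, an ERSE-II or the UPRE core, which 0.130%, 0.037% and 0.603% of 27025 genes hold. Of 9 established ATF6 targets in the table, 5 held an ERSE and 1 an ERSE-II. CCAAT was in 11 of the 23 members and in 37.5% of all genes, and CCACG was in 12 of the 23 and in 31.0%. A window without these letters says nothing of binding elsewhere. The promoters of *Magt1* and *Sec11a* are printed because these members were lower in *Atf6a*-/- animals under TM, that of *Srprb* because it had the largest response, and that of *Hspa5* as an example with an ERSE. They are given on the strand of the gene, with CCAAT and CCACG on either strand in capitals.
*Magt1* (chrX:106011803-106012052, minus strand): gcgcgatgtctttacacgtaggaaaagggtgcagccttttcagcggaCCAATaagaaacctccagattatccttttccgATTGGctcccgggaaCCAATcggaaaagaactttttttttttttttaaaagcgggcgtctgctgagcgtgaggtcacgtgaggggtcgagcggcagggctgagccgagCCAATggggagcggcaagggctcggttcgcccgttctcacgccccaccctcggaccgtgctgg
*Sec11a* (chr7:80947551-80947800, minus strand): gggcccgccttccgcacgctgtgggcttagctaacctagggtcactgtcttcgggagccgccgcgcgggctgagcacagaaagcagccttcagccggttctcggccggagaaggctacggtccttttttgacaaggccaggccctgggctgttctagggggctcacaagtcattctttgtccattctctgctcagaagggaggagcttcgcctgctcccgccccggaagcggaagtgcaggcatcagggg
*Srprb* (chr9:103202066-103202315, minus strand): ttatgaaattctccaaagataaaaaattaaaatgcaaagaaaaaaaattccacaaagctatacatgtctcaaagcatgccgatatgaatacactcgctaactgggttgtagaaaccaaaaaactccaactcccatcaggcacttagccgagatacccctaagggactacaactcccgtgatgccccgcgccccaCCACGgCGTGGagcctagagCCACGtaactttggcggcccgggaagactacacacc
*Hspa5* (chr2:34771840-34772089, plus strand): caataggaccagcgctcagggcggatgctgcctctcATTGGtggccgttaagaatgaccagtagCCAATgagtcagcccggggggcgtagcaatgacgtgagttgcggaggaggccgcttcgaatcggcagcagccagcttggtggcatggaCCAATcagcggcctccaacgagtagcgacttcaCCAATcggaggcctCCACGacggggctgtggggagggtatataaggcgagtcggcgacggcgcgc
The window of *Magt1* holds 4 CCAAT and no CCACG, that of *Srprb* 3 CCACG and no CCAAT, and that of *Sec11a* neither. In *Hspa5* the first base of the ERSE is at -65 from the start.

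*Srprb*, the membrane anchor of the SRP receptor, had the largest response of all members. Its level was 7.10, 8.18 and 7.23 in the wild-type vehicle animals and 10.12, 10.56 and 10.09 with TM. In *Atf6a*-/- animals it was 8.20, 7.84 and 7.95 with vehicle and 10.30, 10.24 and 10.56 with TM. Every TM animal lay above every vehicle animal, and the genotypes overlapped under TM. The difference was 2.75 in wild-type animals (6.74-fold, standard error 0.24, adjusted p = 7.45e-06) and 2.37 (5.17-fold, adjusted p = 1.6e-05) in *Atf6a*-/- animals. Its other 2 probesets rose as well, by 2.34 and 1.32 in wild-type animals.

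All 5 SRP genes of the list rose in both genotypes. *Srp68*, which with *Srp72* forms the large dimer of the particle, was 9.01, 9.89 and 9.23 with vehicle and 10.83, 10.80 and 10.59 with TM in wild-type animals. The *Atf6a*-/- levels were 9.72, 9.66 and 9.73 with vehicle and 11.24, 11.19 and 11.35 with TM. All 3 *Atf6a*-/- animals under TM lay above all 3 wild-type ones. The responses were 1.36 (adjusted p = 0.000148) and 1.56 (adjusted p = 3.45e-05), and the difference of 0.52 between the genotypes under TM did not pass (95% interval 0.15 to 0.90, adjusted p = 0.139). Without the 4 arrays with Y-linked signal it was 0.60 (adjusted p = 0.0318) and passed. *Srp19*, which the particle needs for its assembly, rose by 1.67 in wild-type and 1.76 in *Atf6a*-/- animals. *Srp72* rose by 0.78 and 0.72, and *Srp9* by 0.92 and 0.76. *Srp14*, the partner of *Srp9* in the domain that slows translation, rose by 0.59 and 0.78, the former being 1.504-fold and so at the edge of the threshold. Without replicate 3 of the wild-type vehicle animals or replicate 2 of the wild-type TM animals it was 0.53 or 0.57 and did not pass. The differences between *Atf6a*-/- and wild-type animals under TM were 0.073 to 0.52 over the 6 SRP and receptor genes, and none passed. Without replicate 3 of the *Atf6a*-/- TM animals that of *Srp9* was -0.072 and that of *Srp72* -0.010.

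Of the 3 measured genes of the Sec61 channel, 2 rose in wild-type animals and 1 in *Atf6a*-/- animals. *Sec61a1*, the pore subunit, was 11.90, 11.82 and 11.61 with vehicle and 12.86, 13.16 and 12.82 with TM in wild-type animals. Without *Atf6a* the levels were 12.29, 11.78 and 12.11 with vehicle and 12.95, 12.98 and 13.20 with TM. The TM animals lay above the vehicle animals in both genotypes, with differences of 1.17 (adjusted p = 0.000109) and 0.98 (adjusted p = 0.000273). All 6 of its probesets were called higher in both genotypes. *Sec61b*, the small subunit at the channel's side, rose by 0.68 (1.60-fold, adjusted p = 0.00627) in wild-type animals. In *Atf6a*-/- animals its difference of 0.53 had an adjusted p of 0.0188 but was only 1.44-fold. It passed at 0.61 without replicate 3 of the *Atf6a*-/- vehicle animals and at 0.67 without replicate 1 of the *Atf6a*-/- TM animals. Without the 4 arrays with Y-linked signal it passed at 0.61 (adjusted p = 0.0451). The difference of *Sec61b* between the responses of the genotypes was -0.15 (adjusted p = 0.865) and did not pass. *Sec61a2*, the second gene for the pore subunit, did not pass, with differences of 0.014 in wild-type and 0.36 in *Atf6a*-/- animals.

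Of the accessory proteins of the channel, 1 fell and the others did not pass. *Sec62* and *Sec63*, which serve short and post-translational substrates and the binding of the chaperone BiP, had differences of 0.25 and 0.33 in wild-type animals and of 0.19 and 0.27 in *Atf6a*-/- animals, and none passed. Of the 5 *Sec63* probesets, 1 was called higher in both genotypes, by 1.27 and 0.85, and another in wild-type animals alone, by 0.59, so that gene depends on the probeset. *Tram1*, which contacts signal sequences on their way into the membrane, had a difference of 0.37 in wild-type animals (adjusted p = 0.0455, 1.29-fold) and of 0.067 in *Atf6a*-/- animals.

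*Tram2*, a homologue of *Tram1* that is known for its link to collagen synthesis, was the one member that fell. It was 7.62, 7.77 and 7.86 with vehicle and 6.22, 6.48 and 6.35 with TM in wild-type animals. Animals lacking *Atf6a* had 7.60, 7.53 and 7.85 with vehicle and 6.02, 5.99 and 5.95 with TM. No TM animal reached the level of any vehicle animal, and under TM the *Atf6a*-/- animals lay below the wild-type ones. *Tram2* fell by 1.40 in wild-type (adjusted p = 2.84e-06) and fell by 1.67 in *Atf6a*-/- animals (adjusted p = 6.66e-07). The difference of -0.36 between the genotypes under TM did not pass (adjusted p = 0.093). Its other probeset, at a mean level of 4.81 near the array medians, had differences of -0.38 and -0.43 that did not pass. Markers of stellate cells, the collagen-making cells of the liver, summed to between 12.25 and 12.52 with vehicle and to between 11.98 and 12.46 with TM over both genotypes. Of these 5 markers *Lrat* was called lower in both genotypes, and the other 4 did not pass. The differences were negative in 4 markers and positive in 1 for wild-type, and negative in 3 and positive in 2 for *Atf6a*-/- animals. *Dcn*, the brightest marker, had group means of 11.79 and 11.80 in the former and of 11.76 and 11.81 in the latter, vehicle first. Those of *Col1a1* were 6.36 and 5.02, and 5.08 and 5.18. The part of these cells in the *Tram2* result was not tested.

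Of the TRAP genes, 3 rose in both genotypes. *Ssr3*, the gamma subunit, was 11.43, 11.59 and 11.45 with vehicle and 12.58, 12.88 and 12.69 with TM in wild-type animals. In *Atf6a*-/- animals it was 11.76, 11.40 and 11.84 with vehicle and 12.29, 12.30 and 12.60 with TM. The TM animals lay above the vehicle animals in both genotypes, by 1.23 in wild-type and 0.73 in *Atf6a*-/- animals. The difference between these responses, -0.50, did not pass (95% interval -0.91 to -0.090, adjusted p = 0.311). *Ssr1*, the alpha subunit, rose by 0.79 and 0.87, and *Ssr2*, the beta subunit, by 0.95 and 0.78. *Ssr4*, the delta subunit, had differences of 0.22 and 0.34 that did not pass, while 1 of its 3 probesets was called higher in both genotypes, by 0.86 and 0.68.

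Of the signal peptidase genes 4 rose in both genotypes, and *Sec11a*, a catalytic subunit, was lower in *Atf6a*-/- animals under TM. *Sec11a* was 10.98, 11.38 and 11.29 with vehicle and 13.11, 13.09 and 12.99 with TM in wild-type animals. The *Atf6a*-/- levels were 11.20, 11.19 and 11.21 with vehicle and 12.21, 12.43 and 12.43 with TM. Every TM animal lay above every vehicle animal, and every *Atf6a*-/- animal under TM lay below every wild-type one. The responses were 1.85 in wild-type animals (3.59-fold, standard error 0.11, adjusted p = 3.83e-07) and 1.16 (2.23-fold, adjusted p = 9.69e-06) in *Atf6a*-/- animals. *Sec11c*, which encodes the alternative catalytic subunit, had differences of 0.34 and 0.084, and neither passed. Its other probeset was called higher in wild-type animals, by 0.59 (adjusted p = 0.000466 by limma).

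The other signal peptidase subunits had responses between those values. *Spcs3*, a subunit needed for cleavage, rose by 1.05 and 0.67, *Spcs2* by 0.96 and 0.67, and *Spcs1* by 0.72 and 0.63, each with wild-type first. Leaving out replicate 3 of the *Atf6a*-/- TM animals ended the calls of *Spcs1*, *Spcs2*, *Spcs3*, *Ssr2* and *Ddost* in that genotype, by the fold threshold, and left 13 members higher in place of 18. That animal had the highest mean level of all members among the 3, 0.85 against 0.58 and 0.70 for the others, relative to the wild-type vehicle mean. Leaving out replicate 2 of the *Atf6a*-/- vehicle animals ended the calls of *Spcs1* (0.57) and *Spcs2* (0.58) there. Leaving out replicate 2 of the wild-type TM animals ended that of *Spcs1* in wild-type animals (0.58). The calls of *Spcs1* also depend on the probeset. With the mean of all its probesets the differences were 0.58 in wild-type and 0.57 in *Atf6a*-/- animals, and neither passed. With probesets ending in _s_at, _x_at or _a_at left out they were 0.42 and 0.49, and neither passed.

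**Figure D3:**
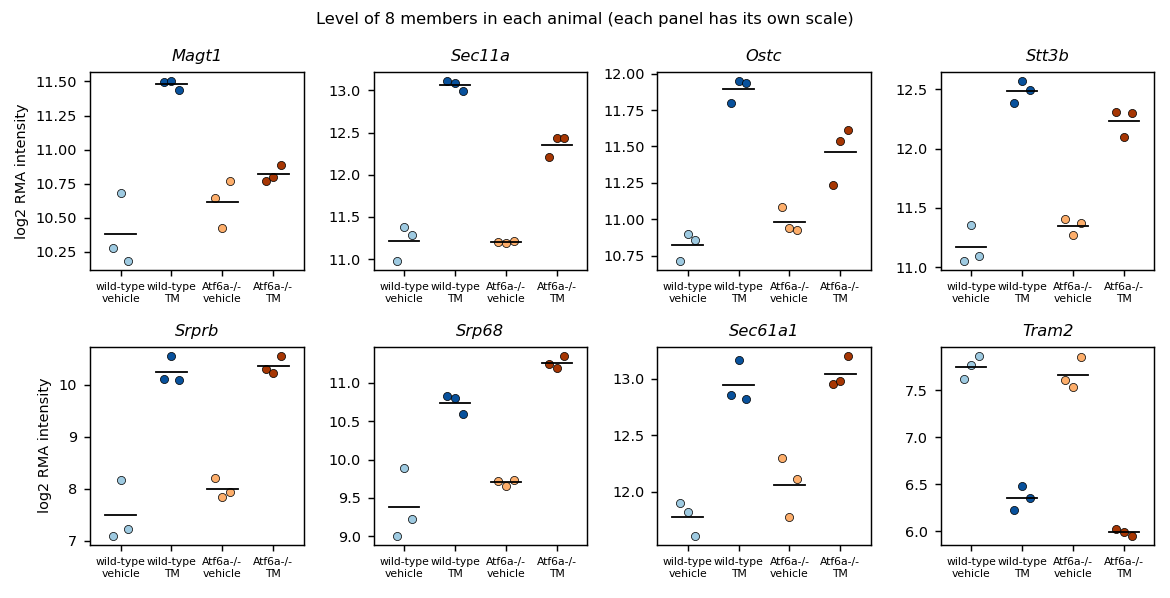
Log2 RMA intensity of 8 members in each of the 12 animals; points are animals, lines are group means (n = 3), and each panel has its own scale. *Magt1*, *Sec11a*, *Ostc*, *Stt3b* and *Tram2* lay lower in every *Atf6a*-/- animal under TM than in every wild-type one, and *Srp68* lay higher. Of the members not drawn, *Sec11c* and *Rpn2* lay lower and *Sec61a2* and *Srp14* higher in the same way. Of these differences between the genotypes only those of *Magt1* and *Sec11a* passed. The share of all genes without such overlap was not taken. *Tram2* fell with TM.

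Of the 9 OST genes 6 rose in wild-type and 4 in *Atf6a*-/- animals. The catalytic subunits of its 2 forms both rose. *Stt3b*, the subunit of the form that also acts after synthesis, was 11.06, 11.36 and 11.09 with vehicle and 12.39, 12.57 and 12.49 with TM in wild-type animals. Without *Atf6a* the levels were 11.41, 11.28 and 11.37 with vehicle and 12.30, 12.10 and 12.30 with TM. The TM animals lay above the vehicle animals, by 1.31 in wild-type and 0.88 in *Atf6a*-/- animals, and under TM the genotypes did not overlap. The difference of -0.25 between them did not pass (adjusted p = 0.272). *Stt3a*, the subunit of the form bound to the translocon, rose by 0.84 in each genotype, and the difference between its responses was 0.0046 with a 95% interval of -0.44 to 0.45.

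Of 4 subunits shared by both forms, 2 rose in both genotypes and 2 did not pass. *Rpn1*, which holds substrates near the active site, was 11.07, 11.37 and 11.33 with vehicle and 12.43, 12.78 and 12.28 with TM in wild-type animals. It rose by 1.24 in wild-type and 0.77 in *Atf6a*-/- animals, and 5 of its 6 probesets were called higher in both. The remaining probeset, at a mean level of 5.72, had differences of -0.046 and -0.53. *Ddost* rose by 0.96 and 0.67. *Rpn2* had differences of 0.27 and 0.087 and *Dad1* of 0.18 and -0.040, and none of these passed.

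*Magt1*, an oxidoreductase subunit of the STT3B form that is also tied to magnesium transport, was 10.28, 10.68 and 10.19 with vehicle and 11.50, 11.50 and 11.44 with TM in wild-type animals. Animals lacking *Atf6a* had 10.65, 10.43 and 10.77 with vehicle and 10.77, 10.80 and 10.89 with TM. The wild-type TM animals lay above all others, whereas the TM and vehicle groups of *Atf6a*-/- animals met at 10.77. *Magt1* rose by 1.10 in wild-type animals (2.14-fold, adjusted p = 7.23e-05), and its difference of 0.20 in *Atf6a*-/- animals did not pass (95% interval -0.074 to 0.48, adjusted p = 0.262). Its second probeset had 1.38 (adjusted p = 0.00055) and 0.52 (adjusted p = 0.0872). *Tusc3*, the gene for the alternative to *Magt1* in the same form, had differences of -0.49 and 0.018 that did not pass. Its group means were 7.14 and 6.65 in wild-type and 6.62 and 6.64 in *Atf6a*-/- animals. Without replicate 1 of the wild-type vehicle animals its wild-type difference was -0.69 (adjusted p = 0.0123) and passed.

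*Ostc*, a subunit of the STT3A form, was 10.72, 10.90 and 10.86 with vehicle and 11.79, 11.95 and 11.94 with TM in wild-type animals. In *Atf6a*-/- animals it was 11.08, 10.94 and 10.93 with vehicle and 11.24, 11.53 and 11.62 with TM. The TM animals lay above the vehicle animals in both genotypes, and the *Atf6a*-/- animals under TM lay below the wild-type ones. *Ostc* rose by 1.07 in wild-type animals (adjusted p = 2.55e-05), and its difference of 0.48 in *Atf6a*-/- animals had an adjusted p of 0.00583 but was 1.39-fold. Without replicate 1 of the *Atf6a*-/- TM animals it was 0.59 and passed. With the mean of the 2 *Ostc* probesets the difference in *Atf6a*-/- animals was 1.10 (adjusted p = 0.000288 by limma) and passed. The smaller response of *Ostc* in that genotype thus depends on the probeset.

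Under TM, 2 of the 31 members were lower in *Atf6a*-/- animals, 0 were higher and 29 did not pass. Of all genes 2.89% were called higher and 1.53% lower in the same comparison. At an unadjusted p under 0.05, whatever the fold, limma gave 6 members lower and 1 higher, *Srp68*. The share of all genes at that looser threshold was not taken, so those counts have no background here. *Sec11a* differed by -0.71 (1.63-fold lower, 95% interval -0.94 to -0.47, adjusted p = 0.00301) and *Magt1* by -0.66 (1.58-fold lower, 95% interval -0.94 to -0.38, adjusted p = 0.0115). *Ostc* differed by -0.43 (adjusted p = 0.0463), which was 1.35-fold and below the threshold. The median over the members was -0.043 and over all genes -0.018. Leaving out any 1 of the 6 TM arrays moved the members' median, to between -0.15 and 0.037, and it was positive without replicate 2 of the wild-type or replicate 1 of the *Atf6a*-/- TM animals. Leaving out replicate 2 of the wild-type TM animals ended the call of *Magt1* (-0.65, adjusted p = 0.0542).

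The difference between the genotypes in the response to TM passed for *Magt1* alone. Its response was smaller by 0.89 in *Atf6a*-/- animals, as a signed difference -0.89 (95% interval -1.29 to -0.50, adjusted p = 0.036). Of all genes 1.06% had a larger and 0.748% a smaller response in *Atf6a*-/- animals by this test. The call of *Magt1* was lost in 10 of the 12 fits that left out 1 array each, all but those without replicate 2 of the wild-type or of the *Atf6a*-/- vehicle animals, with values between -1.04 and -0.79 and adjusted p between 0.00589 and 0.101. With the replicate number as a block its adjusted p was 0.0694, and with the mean of all its probesets the value was -0.88 (adjusted p = 0.0735), so neither passed. Its second probeset had -0.86 (adjusted p = 0.254). For *Sec11a* the difference in response was -0.69 (95% interval -1.03 to -0.35, adjusted p = 0.0559) and for *Ostc* it was -0.59 (adjusted p = 0.104), and neither passed. *Sec11a* was close to the threshold. By limma it passed without replicate 2 of the wild-type vehicle animals (adjusted p = 0.0341), and with quantile (0.0398) or cyclic loess normalization (0.0327). It also passed with the sex signal as a covariate (0.0408) and with trend and robust estimation (0.0493). The median over the members was -0.19 and over all genes -0.020. Without replicate 3 of the *Atf6a*-/- TM animals the members' median was -0.29, and without replicate 1 of that group -0.12. The members' levels differed between the genotypes by a median of 0.16 with vehicle and of -0.043 under TM. For scale, 5 of the 10 established ATF6 targets had a smaller response by this test, and the median over the 10 was -1.39.

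With vehicle alone no difference between the genotypes passed for any of the 31 members or for any other gene by limma (0%). The median over the members was 0.16 and over all genes 0.00064. The members' median was 0.092 without replicate 1 of the wild-type and 0.094 without replicate 3 of the *Atf6a*-/- vehicle animals. The largest member differences were 0.49 in *Srprb* (95% interval -0.030 to 1.01) and -0.51 in *Tusc3* (95% interval -0.90 to -0.13), and both had an adjusted p of 1. *Tusc3* was the 1 member with an unadjusted p under 0.05.

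**Figure D4:**
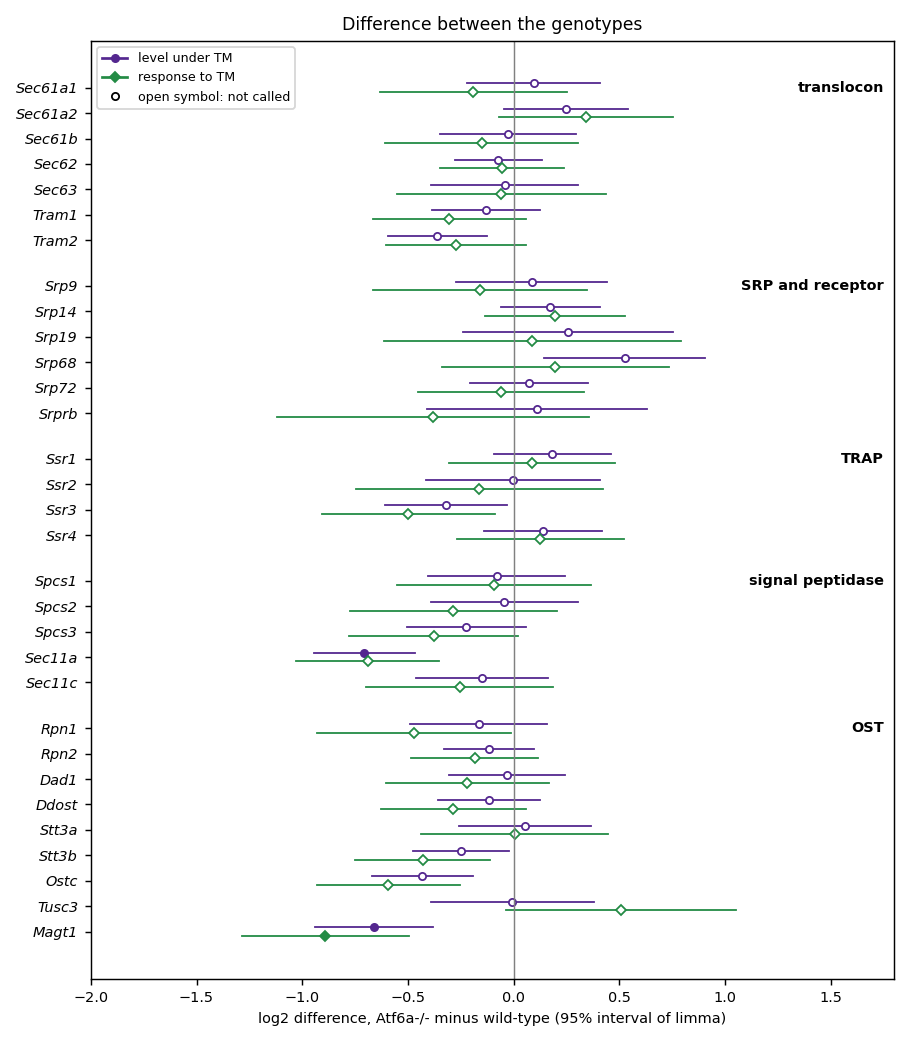
Log2 difference between *Atf6a*-/- and wild-type animals in the level under TM (circles) and in the response to TM (diamonds), for each measured member, with limma's 95% intervals; open symbols did not pass. *Sec11a* and *Magt1* were lower under TM, and *Magt1* alone passed in the response.

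Genes that work beside these members were counted by list. Of all genes 8.92% were higher with TM in wild-type and 13.1% in *Atf6a*-/- animals, and 6.9% and 8.21% were lower. Of 14 measured further translocon and OST genes, 6 were higher with TM in each genotype, and none passed between the genotypes under TM. *Srpr*, the other subunit of the SRP receptor, rose by 0.92 in wild-type and 1.18 in *Atf6a*-/- animals, though its wild-type value was -0.044 when probesets ending in _s_at, _x_at or _a_at were left out. *Ccdc47*, part of a complex that helps membrane proteins with several spans, rose by 1.61 and 1.91, and *Hspa5*, which encodes BiP, by 1.88 and 1.45. *Krtcap2*, which like *Ostc* belongs to the STT3A form, rose by 0.75 and 0.67. Of the ER membrane protein complex, a separate insertase, 0 of 10 genes were higher in either genotype and *Emc9* was lower in both (-0.95 and -1.37). For 10 genes these counts lie near the shares of all genes and do not set the complex apart. At an unadjusted p under 0.05, whatever the fold, limma gave, of those 10, 5 higher against 3 lower for wild-type and 3 against 3 for *Atf6a*-/- animals. These counts too lack the share of all genes at that threshold. Of 6 measured genes for the insertion of tail-anchored proteins, 2 were higher in each genotype. *Get3*, the targeting ATPase of that pathway, rose by 0.63 in wild-type animals and had 0.22 in *Atf6a*-/- animals, which did not pass. *Get4* rose by 0.59 and 0.83, and *Caml* had 0.32 in wild-type animals, which did not pass, and rose by 0.78 in *Atf6a*-/- animals. The median difference in response over these 6 genes was 0.16, with 4 of 6 positive, and none passed.

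The choice of probeset mattered for single members. Of the 23 members with several probesets, 10 had probesets that differed in their call in wild-type animals and 9 in *Atf6a*-/- animals, and in no member did probesets have opposite calls. Between the genotypes under TM this was so for 2 members, *Sec11a*, whose second probeset lay at a mean level of 3.75, and *Magt1*, whose second probeset had -0.69 (adjusted p = 0.101).

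**Figure D5:**
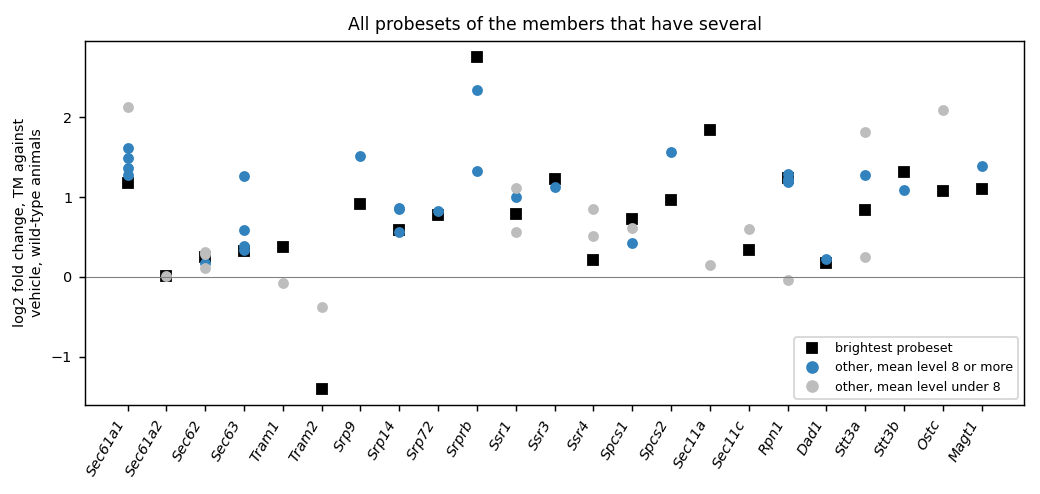
Log2 fold change between TM and vehicle in wild-type animals for every probeset of the 23 members that have several; squares mark the brightest probeset, which represents the gene. In *Sec61a1* all 6 probesets lie above 1, while in *Rpn1* and *Sec11a* a dim probeset lies near 0.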

How the data were processed

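The members and lists were chosen with earlier results of these data known. The authors deposited log2 values that the labels' processing notes tie to RMA, affy and limma, without versions, and these were used unchanged. RMA subtracts background, quantile normalizes and summarises probes. Of 45101 probesets, 64 controls were left out and 45037 tested with limma 3.58.1 in R 4.3.3 (8 residual and 4.25 prior degrees of freedom), with p-values adjusted by Benjamini-Hochberg over all probesets. The 5 contrasts were TM against vehicle per genotype, the genotypes with each injection, and the difference between the responses. Named were all members, of each list genes with the largest statistics, and of the ATF6 targets *Hspa5* and those that passed in the difference between the responses. The other targets, *Hsp90b1*, *Dnajc3*, *Herpud1* and *Hyou1*, did not pass there and enter the counts and medians alone. On simulated data for TM against vehicle in wild-type animals, 96 of 100 probesets changed by 2 and 87 of 100 changed by 1 on the log2 scale were called, and 5 of 44837 unchanged ones. The simulated noise was independent between probesets. The comparisons between the genotypes were not simulated, so these rates do not apply to them. With 3 against 3 arrays an exact permutation p is at least 0.1. The number of arrays limits the precision. Alternatives were other normalizations, centring on *Btf3* and *Ppia* (its probeset also names another gene), other thresholds, tests and probesets, covariates, and leaving out arrays.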

Additional observations from a re-analysis of the deposited data

Results flagged for a closer look

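*Magt1* is listed because its responses to TM in the 2 genotypes differed by the test of the difference itself, by -0.89 on the log2 scale (adjusted p = 0.036 by limma). That call was lost in 10 of the 12 fits that left out 1 array each, with the replicate number as a block (adjusted p = 0.0694) and with the mean of all probesets (adjusted p = 0.0735). By the same test 5 established ATF6 targets, which are not members, had smaller responses in *Atf6a*-/- animals. The differences were -2.91 for *Pdia4* (adjusted p = 5.79e-05), -1.54 for *Dnajb11* (adjusted p = 0.00206), -2.91 for *Creld2* (adjusted p = 0.000465), -2.18 for *Sdf2l1* (adjusted p = 0.00754) and -3.25 for *Derl3* (adjusted p = 0.00102).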

How the results depend on the processing

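Quantile and cyclic loess normalization, centring on reference genes, the sex signal as a covariate, and only bright probesets left the counts of members higher with TM within 1.5 times of 21 and 18. At more than 2-fold the counts were 11 in wild-type and 4 in *Atf6a*-/- animals, and the methods' t-test after Benjamini-Hochberg adjustment gave 8 in *Atf6a*-/- animals. Leaving out 1 array gave 19 to 21 in wild-type and 13 to 20 in *Atf6a*-/- animals, and 1 to 2 lower in wild-type animals. Lower in *Atf6a*-/- animals under TM were 2 members, 1 with the mean of all probesets (*Sec11a* lost), 0 at 2-fold, 0 by that t-test, and 1 to 2 without 1 array; 1 was higher (*Srp68*) when the 4 Y-linked arrays were left out, an alternative chosen after seeing the data.

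A smaller response in *Atf6a*-/- animals had 1 member, 2 with quantile or cyclic loess normalization, the covariate, or eBayes with trend and robust estimation, 3 by unadjusted p, 0 at 2-fold or with the mean of all probesets, and 0 to 2 without 1 array. Wherever the count was 2, the members were *Magt1* and *Sec11a*. Animals with the same number did not deviate together: over 18 pairs r ran from -0.476 to 0.394, and 5 of 12 arrays correlated best with their own number. The 4 arrays with Y-linked signal did deviate together, with r from 0.205 to 0.606 over their 6 pairs. With the replicate number as a block the count of smaller responses was 0 (*Magt1* -0.89, adjusted p = 0.0694), and no other call of a member changed. With probesets ending in _s_at, _x_at or _a_at left out, *Rpn1* was at -0.046 and -0.53 and *Srpr* at -0.044 in wild-type animals, since dimmer probesets then stood for them. The methods' t-test and fits limited to a contrast's own arrays were not run for the difference between responses.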
